A study of Mus musculus with 6 samples.

Results

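The genes described here encode the protein components of the mitochondrial ribosome. They were taken as all protein-coding genes of the deposited count table whose identifier maps, in GENCODE release M21 on GRCm38, to a symbol of the form Mrpl or Mrps with a number and at most 1 letter. The rule found 78 genes among 49315, and it used no expression value. Another 5 rows with such symbols are processed pseudogenes and were left out. RNA was measured by bulk sequencing in 6 heart samples from C57BL/6 mice, 3 wild-type (Txnip WT) and 3 conditional knock-in (Txnip C247S mutant). Each sample is called a heart below, although the labels do not say that the samples came from separate mice. Txnip is the thioredoxin-interacting protein, and the knock-in replaces a cysteine of that protein with serine. The treatment field names MerCreMer, a Cre recombinase that becomes active with tamoxifen, and 4-hydroxytamoxifen for both genotypes. It does not settle whether wild-type hearts carried the recombinase, and it names neither its promoter nor the age of the mice. The comparison asks how transcript levels in the heart differ between these genotypes. If only knock-in hearts carried the recombinase, its part cannot be told apart from that of the replaced residue. The level of Txnip transcript also differed between the genotypes, as given below, and cannot be told apart from the residue either.

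Mitochondria translate the few proteins of their own genome on a separate ribosome, whose RNAs come from mitochondrial DNA and whose proteins all come from nuclear genes, are made in the cytosol and are imported. Its products are core subunits of the respiratory chain and ATP synthase, on which the heart depends for its steady supply of ATP. The large subunit (Mrpl genes) forms the peptide bond and the small subunit (Mrps genes) reads the messenger RNA. Some members descend from proteins of the bacterial ribosome, and others were added in mitochondria. By current structural assignment 51 of the 78 members belong to the large subunit, among them Mrps30 and Mrps18a despite their names, and 26 to the small subunit. Mrps36 is now placed in the 2-oxoglutarate dehydrogenase complex and was kept because its symbol fits the rule. Of the ribosomal members, 46 are counted as bacterial homologues and 31 as specific to mitochondria. Mrps18a and Mrps18b are related to bacterial S18 but are counted among the 31, as the nomenclature from ribosome structures does.

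The members lie on 17 chromosomes, with 11 on chromosome 11, 8 on chromosome 17 and none on the mitochondrial chromosome. RefSeq promoters on GRCm38.p6, from 250 bases before to 50 bases after the start, were held for 69 of the 78. The words CCGGAAG, the core bound by GABPA and other ETS factors, AAGATGGC, a core of YY1 sites, and CACGTG, the E-box, as well as the palindromic site of NRF1, were searched on both strands. GABPA, YY1 and NRF1 are classical regulators of nuclear genes for mitochondria. The ETS word was present in 34.7% of 75 member promoters, in 17.0% of 12292 promoters of tested protein-coding genes and in 8.86% of all 32851 promoters in the table. For the YY1 word the shares were 16%, 4.29% and 2.75%. For the NRF1 site they were 4.00%, which is only 3 member promoters, 1.99% and 0.971%. For the E-box they were 9.33%, 9.85% and 7.15%. At no member promoter did an ETS and a YY1 word overlap, and they did at only 1 of all 32851 promoters. These are matches of letters and not measured binding. Windows of 30 bases are shown for members described below, with the matched word in capitals, written 5′ to 3′ along the gene's strand on GRCm38.p6. The first 4 hold the ETS word and the last 3 the YY1 word, which in Mrpl36 lies on the opposite strand.

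Mrpl34 (chr8:71464878-71464907, plus strand): aactacagctcCCGGAAGgccccgcggcaa
Mrpl57 (chr14:57826232-57826261, plus strand): ccccagagagaCCGGAAGcagcgcgccgcc
Mrpl33 (chr5:31613937-31613966, plus strand): ccgcgcatgccCCGGAAGtagtcgttgagc
Mrps12 (chr7:28741802-28741831, minus strand): aaggaggaaccCCGGAAGgggctggaggta
Mrpl36 (chr13:73330968-73330997, plus strand): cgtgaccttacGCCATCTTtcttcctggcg
Mrpl37 (chr4:107066822-107066851, minus strand): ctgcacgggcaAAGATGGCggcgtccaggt
Mrpl42 (chr10:95501904-95501933, minus strand): cagattgaagcAAGATGGCgagcgcgcggt

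Fold changes were set beside these words as a description. The median log2 fold change, knock-in over wild-type, was −0.03 over the 26 members with it and 0.03 over the 43 without it. Over the 12 members with the YY1 word it was −0.04. A protein-coding gene starting head to head within 1000 bases was found for 18 of 78 members (23.1%) and for 10.1% of tested protein-coding genes. Among these neighbours was Sars2, the mitochondrial seryl-tRNA synthetase, whose annotated start lies 172 bases from that of Mrps12. Mrps12, the decoding-centre protein, had a log2 fold change of −0.30 ± 0.17 (SE) and Sars2 one of −0.05 ± 0.14.

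Library totals ran from 14146048 to 15620476 counts. The filter on low counts left 12777 genes for testing. Txnip stood at 724, 791 and 741 CPM (counts scaled to a common library size with TMM factors) in wild-type and at 438, 391 and 429 CPM in knock-in hearts, lower in each knock-in heart (edgeR adjusted p = 0.00379). The cardiac identity of the samples was clear, since the 10 cardiomyocyte markers summed to 79700 to 83000 CPM in wild-type and 88400 to 91000 CPM in knock-in hearts. Red-cell markers summed to 489 to 669 CPM in wild-type and 1500 to 1970 CPM in knock-in hearts, with 7 of 9 called higher. Macrophage markers summed to 336 to 388 and 255 to 273 CPM, with 1 of 10 called lower (Lyz2, lysozyme, −0.60 ± 0.10 on the log2 scale). Smooth muscle and pericyte markers summed to 662 to 727 and 570 to 588 CPM, with 1 of 8 called lower (Acta2, smooth muscle actin, −1.24 ± 0.12). Most of this fall was Acta2, with means of 189 CPM in wild-type and 80.1 CPM in knock-in hearts. The median log2 fold change of the 8 was 0.0036, with 4 positive and 4 negative. Of the cardiomyocyte markers 1 was called higher (Myl2, a ventricular myosin light chain, 0.55 ± 0.09). The 8 lymphocyte markers summed to at most 2.37 CPM. Adipocyte markers summed to 21.5 to 23.4 and 31.6 to 37.1 CPM, nearly all from Cidea, a lipid droplet protein (0.62 ± 0.11, edgeR adjusted p = 0.0667), while Lep and Plin1 were at 0 in every library. The part of these shifts in the values below was not tested, and in bulk tissue fewer cells of a type and less RNA per cell cannot be told apart. Wild-type replicate 3 stood apart in its mitochondrial share, with 27.95% of its counts on the mitochondrial chromosome against 22.9% to 24.3% in the other libraries. Knock-in replicate 2 had the lowest sums of endothelial and fibroblast markers. These were 535 and 595 CPM, beside 839 to 842 and 727 to 773 CPM in the other knock-in hearts. In wild-type hearts they ran from 569 to 815 and from 655 to 688 CPM.

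No mitochondrial ribosomal protein gene passed the test between the genotypes. All 78 members had enough counts, and 0 were called at an adjusted p under 0.05 by edgeR's quasi-likelihood test, where 0.297% of all tested genes were. At an unadjusted p under 0.05, 2 members were higher (4.74% of all tested genes) and 4 were lower (5.23%), together 6 beside 9.97% of all tested genes. DESeq2, which called 1.03% of all tested genes, and limma-voom, which called 0.141%, also called 0 members. The median log2 fold change was 0.0073, beside −0.0068 over all tested genes, with 43 members above and 35 below 0. The number above 0 was 31 with library-size scaling, 30 without wild-type replicate 3 and 52 without wild-type replicate 2, so this tally has no stable majority. The middle of the distribution was narrow, with quartiles of −0.10 and 0.11 and extremes of −0.56 (Mrpl57) and 0.28 (Mrpl14). In the 49 members with little shared or overlapping sequence (under 10% on each measure) the median was 0.0021.

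**Figure D1:**
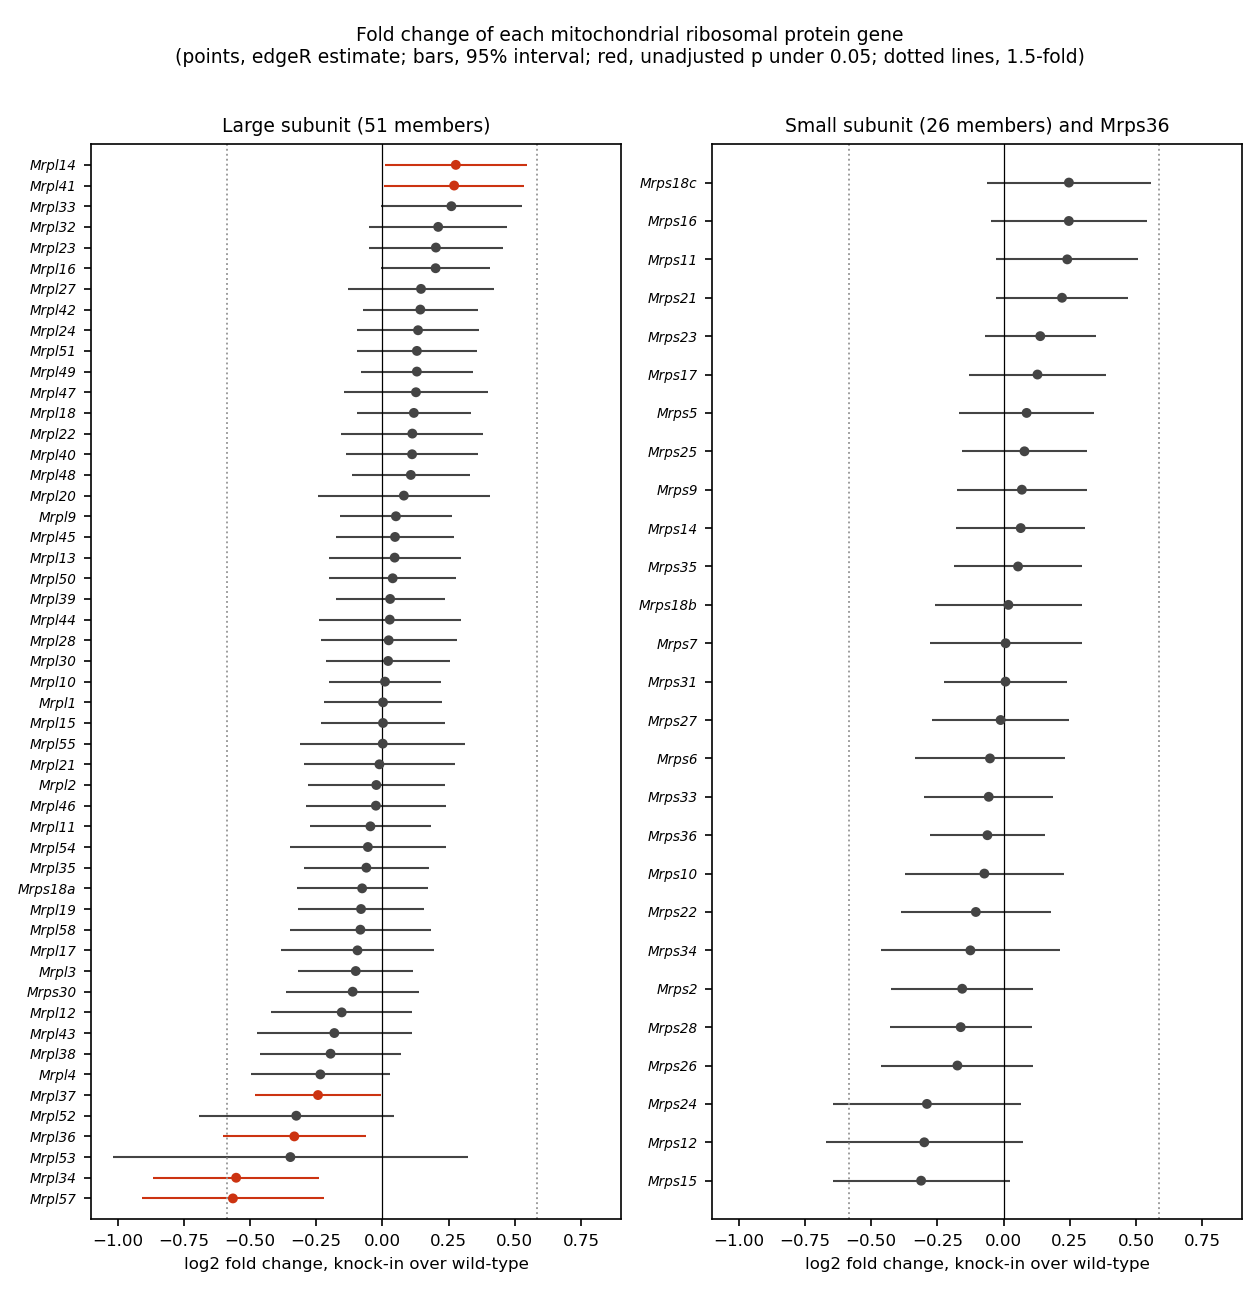
Log2 fold change (knock-in over wild-type, x axis) of each of the 78 members, with large-subunit members on the left and small-subunit members and Mrps36 on the right. Points are edgeR estimates, bars are 95% intervals, red marks an unadjusted p under 0.05, and dotted lines mark 1.5-fold. The intervals of 70 members lie within the dotted lines, and the 8 that cross do so on the lower side.

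The precision allowed bounds on the size of most differences. The 95% interval, unadjusted and for 3 hearts per genotype, lay wholly within a 1.5-fold change in either direction for 70 of 78 members. The same held for 59.1% of all tested genes. The intervals of Mrpl34, Mrpl57, Mrpl36, Mrpl52, Mrpl53, Mrps12, Mrps15 and Mrps24 reached below this limit, and no interval reached above it. For 77 of 78 members the interval lay within 2-fold, the exception being the weakly counted Mrpl53. The median SE of a member was 0.12 on the log2 scale, against 0.16 over all tested genes.

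Both subunits lay near 0. The large subunit had a median log2 fold change of 0.0097 (29 of 51 positive) and the small subunit one of 0.0073 (14 of 26 positive). All 6 members at an unadjusted p under 0.05 were among the 51 of the large subunit, which holds most of the members, and 9.97% of all tested genes had such a p. Members with a bacterial homologue had a median of 0.02 and mitochondria-specific members one of −0.01. The summed CPM of the large subunit over that of the small subunit was 2.61, 2.65 and 2.70 in wild-type and 2.60, 2.65 and 2.64 in knock-in hearts, so the ranges overlapped. The members together took 0.556%, 0.554% and 0.458% of all counts in wild-type and 0.539%, 0.494% and 0.504% in knock-in hearts. Wild-type replicate 3 had the lowest share and the other wild-type hearts the highest.

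**Figure D2:**
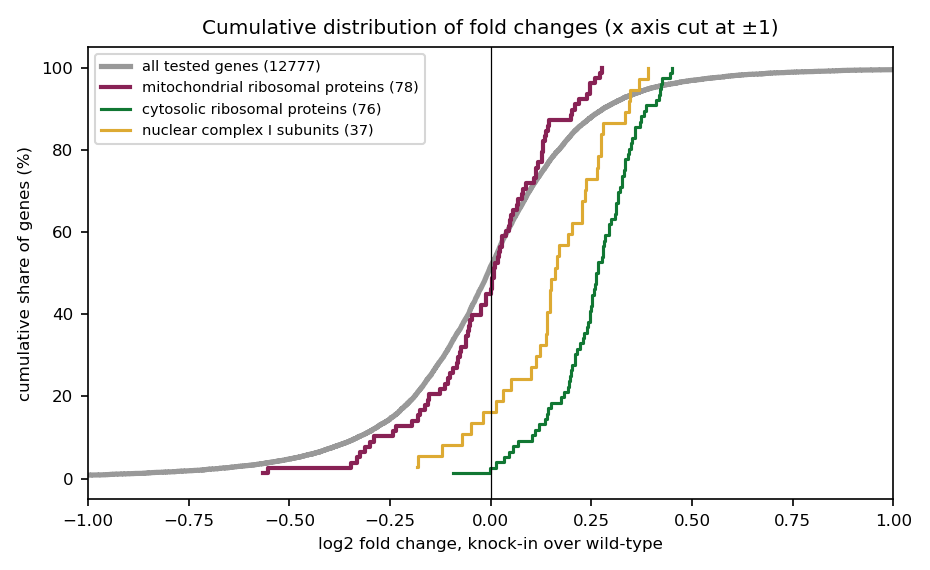
Cumulative share of genes (%, y axis) by log2 fold change (knock-in over wild-type, x axis, cut at ±1) for the 78 members, 76 cytosolic ribosomal proteins, 37 nuclear complex I subunits and all 12777 tested genes. The curve of the members crosses the middle near 0, as that of all genes does, while the medians of the other groups are 0.26 and 0.16.

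Among the members that were lower in knock-in hearts, Mrpl34 had the smallest p. Mrpl34 (ENSMUSG00000034880, chromosome 8, 71464959 to 71465747, 2 exonic blocks) encodes the homologue of bacterial ribosomal protein L34. It stood at 68.9, 64.4 and 52.7 CPM in wild-type and 45.0, 34.9 and 47.0 CPM in knock-in hearts. Each knock-in value lay below each wild-type value, and the log2 fold change came to −0.55 ± 0.14 (SE; edgeR, adjusted p = 0.179). Its p in an exact two-sided permutation test was 0.1, which is as small as groups of 3 can give. The adjusted p was 0.0567 with DESeq2. In edgeR it was 0.0023 with no filter on low counts, where 1.46% of genes were called, and 0.0451 with a length trend removed, where 0.266% were.

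Mrpl57 (ENSMUSG00000021967, chromosome 14, 57826234 to 57829296), a mitochondria-specific protein of the large subunit, had the lowest fold change of the members. Its values were 23.2, 25 and 21.5 CPM in wild-type and 16.5, 12.3 and 18.4 CPM in knock-in hearts, without overlap. Its log2 fold change came to −0.56 ± 0.16 (SE; edgeR, adjusted p = 0.224), and with no filter on low counts the edgeR adjusted p was 0.0158. Mrpl36, the homologue of bacterial L36, stood at 39.9, 41.0 and 34.6 CPM against 28.4, 28.8 and 34.5 CPM. Here the highest knock-in heart was just under the lowest wild-type heart, and the log2 fold change came to −0.33 ± 0.12 (edgeR adjusted p = 0.382). Mrpl37, another mitochondria-specific protein, was at 88.3, 96.2 and 78.4 CPM against 74.8, 69.9 and 77.4 CPM (−0.24 ± 0.11, edgeR adjusted p = 0.484). Both genotypes were separate in each of these 4 genes, and the gap was smallest in Mrpl36 and Mrpl37.

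On the higher side, Mrpl14 and Mrpl41 had the smallest p. Mrpl14 (ENSMUSG00000023939, chromosome 17, 45686322 to 45698495) encodes a conserved protein of the face that meets the small subunit. It had 67.8, 70.7 and 52.5 CPM in wild-type and 78.4, 78.3 and 74.6 CPM in knock-in hearts (log2 fold change 0.28 ± 0.12 SE, edgeR adjusted p = 0.483). Mrpl41 (ENSMUSG00000036850, chromosome 2, 24974117 to 24975098), a mitochondria-specific protein also known to bind Bcl-2, had 56.3, 62.5 and 47.1 CPM against 68.5, 68.7 and 62.8 CPM (0.27 ± 0.12, edgeR adjusted p = 0.484). In both genes the knock-in hearts were close to each other and wild-type replicate 3 was the lowest heart. Without that library the log2 fold changes were 0.16 and 0.17. Of the words of Mrpl41, 25.1% also occur in other transcripts, chiefly in Gm6434, and of those of Mrpl14 12.7%, chiefly in Tmem63b.

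Mrpl33 and Mrpl16, homologues of bacterial L33 and L16, followed. Mrpl33 was at 58.6, 58.0 and 49.3 CPM against 75.5, 60.0 and 63.3 CPM (log2 fold change 0.26 ± 0.12, edgeR adjusted p = 0.509). Mrpl16 was at 85.1, 85.1 and 83.6 CPM against 102, 97.5 and 91.9 CPM (0.20 ± 0.09, edgeR adjusted p = 0.515). The wild-type hearts were nearly equal for Mrpl16, and all knock-in hearts lay above them. Counting all members, 8 had every knock-in value above every wild-type value (8.12% of tested genes) and 4 had every one below (7.99%), together 12 beside 16.1%.

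**Figure D3:**
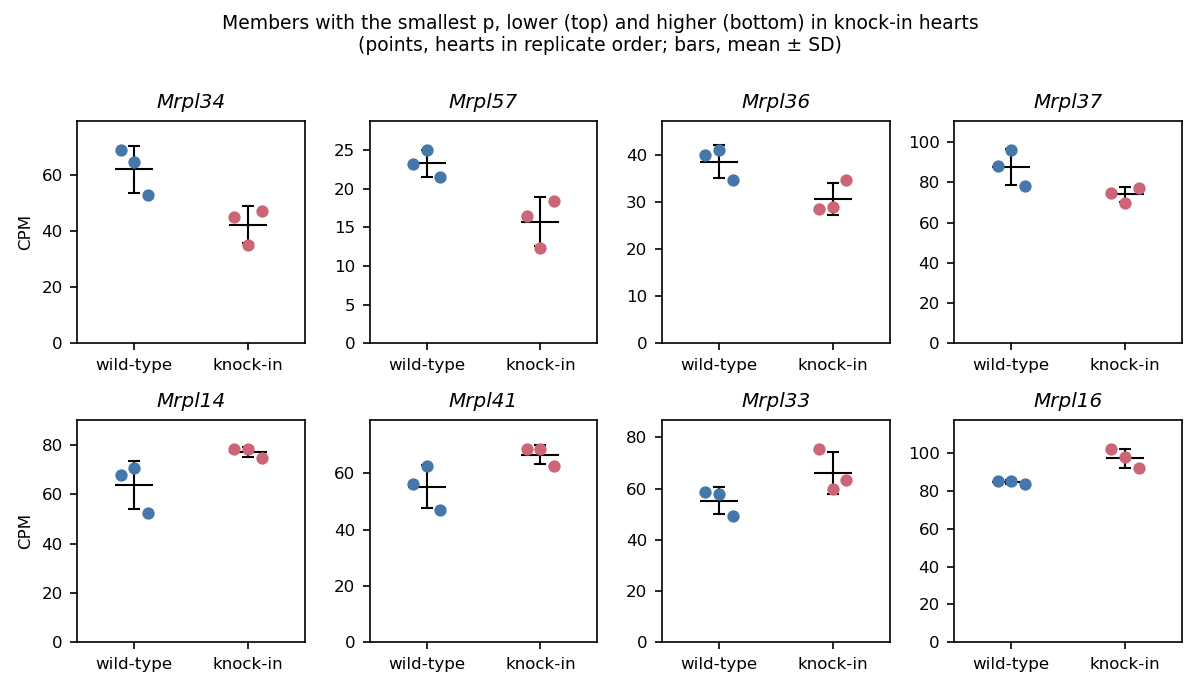
Level (CPM, y axis from 0) in each heart of the 4 members with the smallest p among those lower (top) and higher (bottom) in knock-in hearts; points are hearts in replicate order and bars are mean ± SD (n = 3). Mrpl34 and Mrpl57 have the largest fold changes of those shown, and in Mrpl14 and Mrpl41 wild-type replicate 3 is the lowest point.

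Members with well-known functions are given next. Mrpl12, the stalk protein that recruits translation factors, had 268, 270 and 202 CPM in wild-type and 234, 212 and 218 CPM in knock-in hearts (log2 fold change −0.15 ± 0.12). This value was −0.28 without wild-type replicate 3 and −0.08 without wild-type replicate 2. Mrpl45, at the exit of the peptide tunnel where the ribosome meets the inner membrane, had 94.3, 85.2 and 91.1 CPM against 91.2, 101 and 87.5 CPM (0.05 ± 0.10). Mrpl58, a peptidyl-tRNA hydrolase that rescues stalled ribosomes, had 47.9, 55.1 and 41.2 CPM against 44.0, 44.7 and 47.4 CPM (−0.08 ± 0.12). In each of these genes the ranges of the genotypes overlapped. Mrps12 had 45.9, 41.2 and 31.2 CPM against 37, 25.9 and 33.3 CPM (−0.30 ± 0.17), again with overlap. Its value was −0.16 without knock-in replicate 2.

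The 3 relatives of bacterial S18 sit in different subunits. Mrps18a, in the large subunit, had 85.0, 82.4 and 71.9 CPM in wild-type and 83.5, 69.0 and 74.4 CPM in knock-in hearts (log2 fold change −0.08 ± 0.11). Mrps18b, in the small subunit, had 26.3, 22 and 22.1 CPM against 25.4, 24.2 and 21.6 CPM (0.02 ± 0.13). Mrps18c, also in the small subunit, had 27.7, 23.5 and 22.6 CPM against 33.0, 24.4 and 30.2 CPM (0.25 ± 0.14). The genotypes overlapped in all 3 genes. Of the words of Mrps18b 64.3% and of Mrps18c 38.1% occur in other transcripts, so both levels are uncertain. Mrps30, the other large-subunit member with a small-subunit name, had 50, 46.7 and 40.3 CPM against 44.2, 39.4 and 43.2 CPM (−0.11 ± 0.11). Mrps36 had 68.2, 62.3 and 61.7 CPM against 63.2, 62.5 and 58.6 CPM (−0.06 ± 0.10), and 41.6% of its words occur in other transcripts, chiefly its pseudogenes.

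Levels per length spread far more widely between members than between genotypes. The highest level per kb of principal transcript, a mean over the 6 hearts, was that of Mrpl42 at 506 CPM per kb. Mrps21 followed at 182 and Mrpl12 at 178 CPM per kb. The lowest were Mrpl53 at 1.92, Mrpl17 at 5.46 and Mrpl57 at 6.78 CPM per kb. Mrpl42 itself had 327, 336 and 298 CPM in wild-type and 387, 342 and 333 CPM in knock-in hearts (log2 fold change 0.14 ± 0.10). Mrps21 had 87.0, 83.9 and 74.7 CPM against 106, 85.4 and 94.5 CPM (0.22 ± 0.11). Both sets of values overlapped between the genotypes. Of the words of Mrps21 22.3%, and of Mrpl12 18.5%, also occur in other transcripts, so these levels are uncertain.

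The order depends on the transcript taken for the length. Over all exonic bases Mrpl12 was first, at 153 CPM per kb, and Mrpl42 ranked 6, at 91.6 CPM per kb. Mrpl17 had 40.4, 47.6 and 35.6 CPM against 37.7, 35.5 and 42.5 CPM (log2 fold change −0.09 ± 0.13) and a principal transcript of 7300 bases. Mrpl53 had 1.43, 1.80 and 1.25 CPM against 1.43, 0.988 and 1.09 CPM (−0.35 ± 0.30). Its exons overlap another annotated gene on the same strand over 88.0% of their length, which limits what can be assigned to it.

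**Figure D4:**
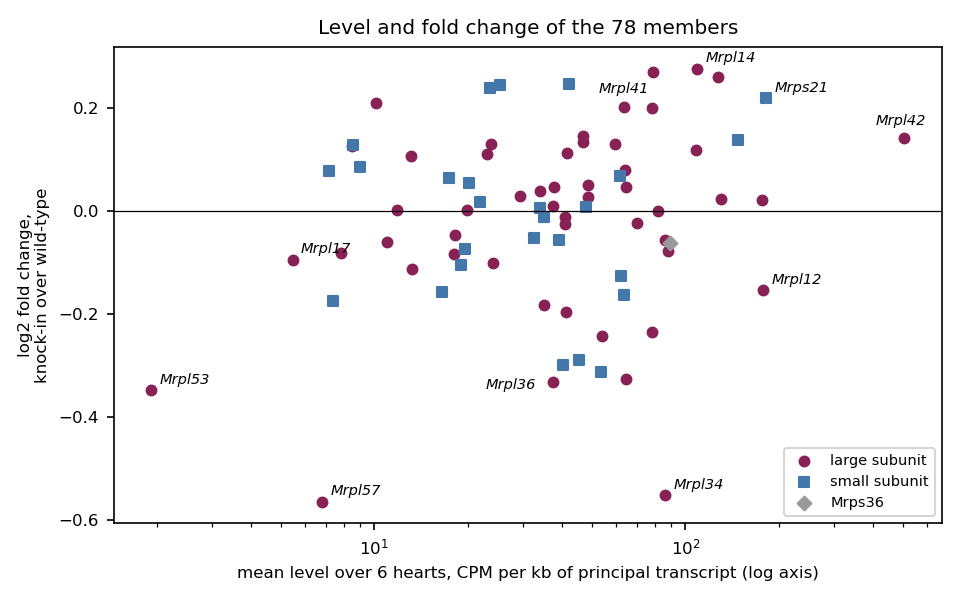
Log2 fold change (knock-in over wild-type, y axis) of the 78 members against their mean level over 6 hearts in CPM per kb of principal transcript (x axis, log scale), by subunit. Levels run from 1.92 (Mrpl53) to 506 (Mrpl42) CPM per kb, and Mrpl34 and Mrpl57 lie lowest on the y axis.

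The mean level of the members in each heart was compared next. Their mean log2 CPM, relative to the mean of the 6 libraries, was 0.08, 0.08 and −0.15 in wild-type and 0.06, −0.05 and −0.03 in knock-in hearts. Wild-type replicate 3 was the lowest of the wild-type hearts for 67 of 78 members, and for 41.2% of all tested genes. It was the lowest of all 6 hearts for 43 members (55.1%), and for 22.2% of all tested genes. Without that library, the median log2 fold change of the members was −0.07, with 0 members higher (3.99% of all tested genes) and 14 lower (5.67%) at an unadjusted p under 0.05. None was called in that fit, where 0.1% of all tested genes were. Without wild-type replicate 2, where 0.0385% were called and again 0 members, it was 0.03, with 3 higher (4.24%) and 2 lower (3.73%). When knock-in replicate 2 was left out, 1.34% of all genes were called, and when knock-in replicate 3 was, 0.0462%, each time with 0 members. It was 0.313% with upper-quartile scaling, 0.313% with a mean of at least 1 CPM and 0.29% with no robust estimation, again with 0 members called. Leaving out both wild-type replicate 3 and knock-in replicate 2, chosen after seeing the data, gave 3.04% and 1 member, Mrpl34 (edgeR adjusted p = 0.00704).

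**Figure D5:**
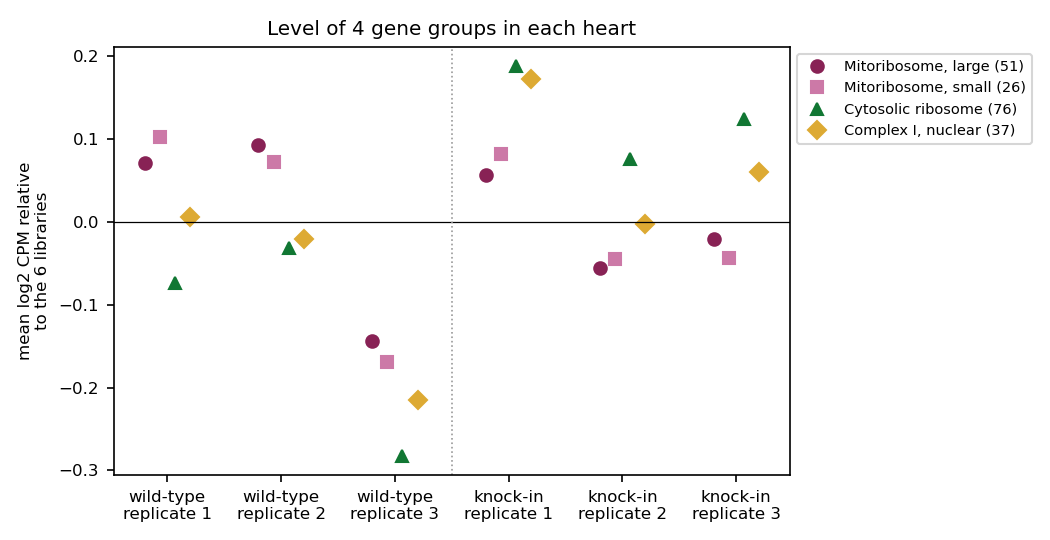
Level of the large- and small-subunit members, cytosolic ribosomal proteins and nuclear complex I subunits in each heart (mean log2 CPM relative to the 6 libraries, y axis; hearts on the x axis). All 4 groups are lowest in wild-type replicate 3. The cytosolic ribosome is higher in every knock-in heart than in any wild-type heart, which does not hold for the large subunit, the small subunit or complex I.

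Other gene groups in the same libraries had other values. Over all tested genes, 48.3% were positive, and 4.74% were higher and 5.23% lower at an unadjusted p under 0.05. The 76 cytosolic ribosomal protein genes had a median log2 fold change of 0.26 with 74 positive, 49 higher at an unadjusted p under 0.05 and 0 called. The 37 nuclear complex I subunits had a median of 0.16 with 31 positive, 12 higher at an unadjusted p under 0.05 and 0 called. The smallest p in these groups were those of Rpl13a (0.45 ± 0.09) and Rpl23a (0.42 ± 0.09), and of Ndufa13 (0.39 ± 0.10) and Ndufs5 (0.37 ± 0.10). Without wild-type replicate 3 these medians were 0.19 and 0.096. The difference between these groups and the members was not tested. The 13 proteins encoded in mitochondrial DNA, which the mitochondrial ribosome translates, had a median of −0.41, with 10 negative, 7 lower at an unadjusted p under 0.05 and 1 called lower, mt-Atp6, a subunit of ATP synthase (−1.20 ± 0.20, edgeR adjusted p = 0.0456). Those 7 stood at 3.58 to 425 CPM. The other 6, at 12000 to 133000 CPM, had log2 fold changes from −0.32 to 0.08 and none at an unadjusted p under 0.05. The handling of multi-mapping reads is not stated, and its part in the far lower levels of the 7 was not tested. The summed CPM of the 13 ran from 228700 to 281000 in wild-type and from 232100 to 246000 in knock-in hearts, with overlap.

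The other proteins of the ribosome and the factors that serve it had 0 called genes as well. Of the 5 ribosomal proteins without an Mrp symbol, Gadd45gip1 had 57.5, 53.3 and 39.7 CPM against 42.5, 29.7 and 45.1 CPM (log2 fold change −0.36 ± 0.18), with overlap. Ptcd3, in the small subunit, had −0.16 ± 0.10, and the median of the 5 was 0.10. The 25 assembly and rRNA modification factors had a median of −0.11 with 19 negative and 0 at an unadjusted p under 0.05. The methyltransferases Mrm1 (−0.30 ± 0.14) and Mrm3 (−0.30 ± 0.16) had the smallest p among them. The 13 translation factors had a median of −0.10 with 8 negative and 0 at an unadjusted p under 0.05, and Gfm2, a recycling factor, had −0.19 ± 0.11, and Mtif3, an initiation factor, 0.17 ± 0.12.

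The 22 genes listed for making charged mitochondrial tRNAs include Qrsl1, Gatb and Gatc, which are not synthetases. Gars and Kars, 2 of the 22, also serve the cytosol. Of the 22, 17 had negative values and the median was −0.07. At an unadjusted p under 0.05, 3 of the 22 were lower (5.23% of all tested genes) and 0 higher (4.74%). Aars2, the alanyl-tRNA synthetase, had 30.5, 30.3 and 28.3 CPM in wild-type and 23, 21.1 and 20.2 CPM in knock-in hearts, without overlap (log2 fold change −0.47 ± 0.11, edgeR adjusted p = 0.150). Yars2, the tyrosyl enzyme, had −0.40 ± 0.13 (edgeR adjusted p = 0.331). Of 17 genes of mitochondrial transcription and RNA stability 9 were negative and 2 were lower at an unadjusted p under 0.05, the DNA polymerase Polg (−0.33 ± 0.10) and the RNA polymerase Polrmt (−0.29 ± 0.13). Of 10 nuclear regulators 7 were negative and 1 was lower at an unadjusted p under 0.05, the receptor Esrra (−0.29 ± 0.12), while Nrf1 had 0.21 ± 0.15.

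Sequence composition of the members was described as well. The longest annotated transcripts of the members had a median GC content of 49.8%, beside 49.7% over all tested genes, and a median length of 1870 bases, beside 3390. Across the 78 members, which share the same 6 libraries, Spearman's rho of fold change with GC content was −0.27, and with transcript length 0.064. Over all tested genes these values were −0.025 and −0.11. With a GC trend removed per library the median of the members was 0.02, with 0 called (0.415% of all tested genes). With a length trend removed it was −0.0023, with 1 called (Mrpl34) beside 0.266% of all tested genes. At an unadjusted p under 0.05, 3 members were then higher (5.59% of all tested genes) and 11 lower (5.68%).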

How the data were processed

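The authors deposited raw whole-number read counts per Ensembl gene, with no normalization. STAR, featureCounts, Subread 1.5.2, DESeq2 and GRCm38.p6 are named, with no roles, per the submitters' processing notes. Neither the gene annotation, nor the strand setting, nor the handling of multi-mapping reads is stated in the sources used here, so overlapping and near-identical genes are uncertain. Columns were matched by sample description. The labels do not say that the samples came from separate mice, so p-values measure only the spread between these samples, which may be technical.

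Genes (49315, of which GENCODE M21 held 49056) were filtered with filterByExpr and tested with edgeR 4.0.16 in R 4.3.3: TMM, glmQLFit with robust estimation, glmQLFTest on genotype over 6 libraries, Benjamini-Hochberg over 12777 genes. Called means an adjusted p under 0.05. The SE is the log2 fold change over the square root of F. A floor of 3 counts equals 0.192 to 0.212 CPM, covering counting error only. Level per library is mean log2 CPM (prior count 2). Shared sequence is the share of 31-base words of the longest transcript found in other genes' transcripts. Principal transcripts follow APPRIS tags. Mitochondrial rRNAs were not analysed here.

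The members, gene lists and tests were chosen with earlier results of these data known. Described in full were called members, the 4 with the smallest p each way and the 3 highest and lowest per kb. So were 9 with known roles (Mrpl12, Mrpl45, Mrpl58, Mrps12, Mrps30, Mrps18a, Mrps18b, Mrps18c, Mrps36). In other lists, called genes or the 2 with the smallest p were named, except among cell-type markers. There the 7 called red-cell markers are given as a count, and lists with 0 called are given as sums. Skeletal muscle markers, with 0 called, summed to 402 to 780 CPM in wild-type and 132 to 1230 CPM in knock-in hearts. Cidea, Lep, Plin1 and Sars2 were chosen after their values were seen. The code was tested on simulated data, where 18.4% of 49 genes with an absolute log2 change of 0.5 were called. Of 99 genes with a change of 1.0, 74.7% were called, and of unchanged genes 0.104%. Alternatives were DESeq2 1.42.0 and limma-voom (limma 3.58.1), scaling by upper quartile, RLE or library size, a filter at a mean CPM of 1, no filter, no robust estimation, no mitochondrial chromosome, removed length or GC trends and each library left out.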

Additional observations from a re-analysis of the deposited data

How the results depend on the processing

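Over 18 alternatives, 0 members were called except with no filter (2, Mrpl34 and Mrpl57), with a length trend removed (1, Mrpl34) and, chosen after seeing the data, with both wild-type 3 and knock-in 2 left out (1, Mrpl34). All tested genes gave 317 calls with no filter, 131 with DESeq2, 18 with limma-voom, 392 without those 2 libraries and 5 to 174 with 1 library left out. Members higher at an unadjusted p under 0.05 numbered 1 with upper-quartile scaling, 0 with library-size scaling, 4 with no filter, 1 with DESeq2, 4 without the 2 libraries and 0 to 4 with 1 library left out. Members lower numbered 8 with no filter, 11 with a length trend removed (5.68% of all tested genes) and 13 without the 2 libraries. With 1 library left out they numbered 2 to 14, the 14 being without wild-type replicate 3 (5.67% of all tested genes). Shares of all tested genes were counted only for the main fit, a removed length trend and wild-type replicate 2 or 3 left out. Counts of members in the other settings, higher or lower, have no background beside them. The median of the members ran over the alternatives from −0.07 without wild-type replicate 3 to 0.04 without knock-in replicate 3, and library-size scaling, which shifted the median of all genes to −0.05, gave −0.03. The cause of these moves was not tested.

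Of 378 values for the 21 members described in full, 364 kept their direction and side of the threshold, 4 passed it (Mrpl34 and Mrpl57 above, at −0.55 and −0.56 with no filter, and Mrpl34 at −0.63 with a length trend removed and −0.53 without the 2 libraries) and 10 turned sign. Mrps18b turned to −0.024 with library-size scaling, −0.028 with a length trend removed and −0.032 without the 2 libraries, where Mrpl45 was at −0.0010. With 1 library left out Mrps18b ran from −0.026 to 0.109, Mrpl45 from −0.0045 to 0.093, Mrpl17 from −0.19 to 0.024 and Mrpl58 from −0.18 to 0.027. Leaving out 1 library moved 16 of the 21 values by over 1.5 times in at least 1 case and called 0 of them, and it also moved Mrpl34 from −0.66 to −0.42 and Mrpl57 from −0.69 to −0.40. No paired analysis was possible because the labels give no replicate numbers shared by the genotypes. Fold changes of members near 0 have no settled sign, and 3 samples per genotype, which the labels do not tie to separate mice, limit the precision.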
